A study of Saccharomyces cerevisiae with 12 samples.

Results

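A set of 10 histone genes of budding yeast was examined for binding of Scc2 with and without auxin-induced depletion of Med14. The genes were taken by name from the RefSeq table and are HTA1, HTB1, HTA2, HTB2, HHT1, HHF1, HHT2, HHF2, HHO1 and HTZ1, out of 6002 nuclear coding genes. CSE4, for the H3 variant of centromeric nucleosomes, is not among them and is counted below with the genes for histone chaperones. The 8 core histone genes form 4 divergent pairs, each transcribed away from a shared spacer that serves as the promoter of both genes. These 4 spacers belong to 1393 spacers of at least 100 bp that separate divergent coding neighbours and hold no other annotated gene.

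Binding was mapped by chromatin immunoprecipitation and sequencing of Myc-tagged Scc2 in W303 MATa cells. The 12 samples comprise 6 Myc immunoprecipitates, each with its own peak list, and 6 samples of total chromatin without one. The lists came from 3 cultures with auxin at 1 mM and 3 cultures whose treatment label gives none. Both groups carried SCC2-13MYC::NAT, MED14-AID*-6FLAG::HYG and the ADH1-OsTIR1 construct at ura3-1 (pMK200,URA3), so cells without auxin also held the degron and the F-box protein. Per the labels' protocols, cells were arrested with alpha-factor, held there for 1.5 hours more with auxin, and released into nocodazole for 2 hours. The labels give this protocol, auxin included, for every sample, and the groups rest on the titles and treatment labels. With a single genotype in both groups, the loss of Med14 and the presence of auxin cannot be told apart. The files used here measure neither Med14 nor the cell-cycle stage. The 3 immunoprecipitations of each replicate were combined, and a separate culture is described for each replicate.

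Core histones H2A, H2B, H3 and H4 form the nucleosome, and budding yeast has a pair of genes for each. The genes of a divergent pair are transcribed together, around the start of S phase, under activators such as Spt10 and SBF. Some of the pairs, but not all, are under repression by the HIR complex outside S phase. Scc2, with Scc4, loads the cohesin ring onto chromosomes. Mediator, of which Med14 is the scaffold, links activators at promoters to RNA polymerase II.

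The lists held 964, 1324 and 1569 peaks with auxin and 2115, 2111 and 1502 without. Each list gives only the places where a peak was called, so that a place without a peak is not one without Scc2. The depth of sequencing is unknown, and calibration with fission yeast enters no value. The median of the authors' fold enrichment was 3.93, 2.83 and 2.57 in the lists with auxin, against 1.70, 1.67 and 2.54 without. Of the lists without auxin, the third had the fewest peaks and the highest median fold. Peaks over coding spans were fewer with auxin genome-wide, at 7.93%, 12.4% and 15.2% of all coding genes, against 24.9%, 25.0% and 17.0% without. Summits in divergent spacers were more frequent with auxin, at 6.46%, 10.1% and 13.8% of the 1393 spacers, against 2.30%, 1.94% and 3.59% without. The part of these differences in the results on histone genes was not tested.

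With auxin, most Scc2 peaks at the histone genes, 12 of 15, had their summits in the shared promoter spacers. Without auxin, 12 of 15 had them over the coding spans. Each peak has only 1 summit, so a gene covered by a spacer's peak can lack a summit of its own. Peaks with a spacer summit covered HTA2 to 100% in lists 2 and 3 with auxin and in list 3 without. They also covered HHT1 to 99.3% and 100% in lists 2 and 3 with auxin, and HTB2 to 100% in list 3 with auxin. Fewer coding summits thus do not mean that these coding spans were uncovered. Each of the 4 spacers held a summit in each of the 3 lists with auxin, 12 of 12 combinations of spacer and list, against 3 of 12 without auxin. A summit in every list with auxin was found at 6.03% of all divergent spacers. Over the coding spans of the 10 genes there were 3 summits in the lists with auxin and 12 in the lists without. The genes with such a summit were 2, 0 and 1 of the 10 with auxin, against 6, 4 and 2 without. Of all coding genes, 5.71%, 9.23% and 10.6% held one with auxin, against 21.1%, 21.2% and 13.2% without, so that fewer coding summits with auxin were also seen genome-wide. All 3 spacer summits without auxin lay between HTA2 and HTB2. The other 3 spacers had a summit in every list with auxin and in no list without, which held for 3.23% of all divergent spacers.

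**Figure D1:**
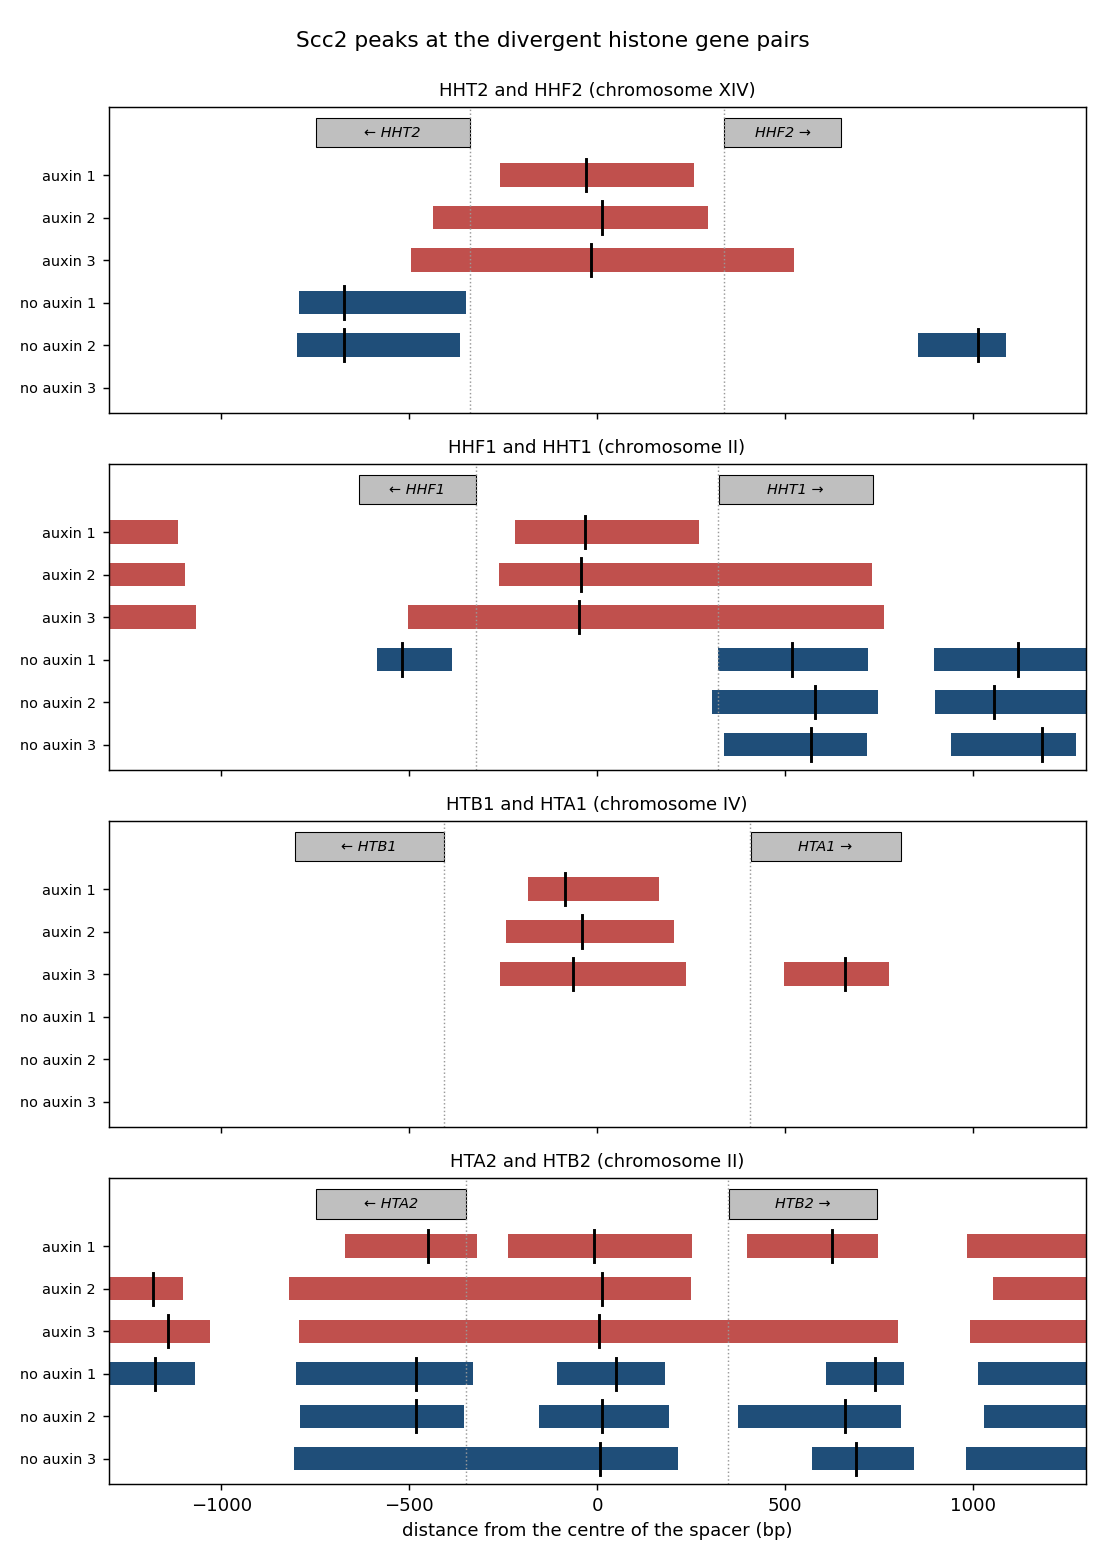
Peaks of each list (bars) and their summits (black ticks) around the 4 divergent histone pairs, by distance from the centre of the spacer in bp. Grey boxes are coding spans with their direction, dotted lines are the ends of the spacer, rows are the 3 lists with auxin (red) above the 3 without (blue), and bars that meet an edge go on beyond it; each spacer holds a summit in all 3 lists with auxin, and only that of HTA2 and HTB2 holds one without.

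HHT2 and HHF2, which encode histones H3 and H4, lie on chromosome XIV around a spacer of 676 bp (576051 to 576726 on sacCer3). Peaks covered 76.3%, 93.6% and 100% of this spacer in the lists with auxin and 0% in each list without. The groups did not overlap, and the means were 90.0 ± 12.2% with auxin and 0% without (SD, n = 3 each). The difference, auxin minus no auxin, was 90.0 percentage points, and place 1 of 1393 divergent spacers by this measure. By exact two-sided permutation over the lists p was 0.1, the smallest that 3 against 3 allow, and 0.316 after Benjamini-Hochberg adjustment over the 281 spacers with a peak.

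The summits in this spacer lay at 576359, 576401 and 576372 in the lists with auxin, 309 to 351 bp upstream of the HHT2 start codon. They were 12.5 to 29.5 bp from the spacer's centre. A stretch of 516 bp (576130 to 576645) was covered in all 3 lists with auxin and ended 80 and 82 bp short of the start codons. Ranked within its list by the −log10 p of column 8, the peak was place 60 of 964, 28 of 1324 and 20 of 1569. These are the top 6.22%, 2.11% and 1.27% of the lists, and the authors' fold was 11.6, 10.7 and 9.54. Among spacers with a summit it was place 6 of 90, 4 of 141 and 4 of 192, the highest of the 4 histone spacers in each list.

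Over the coding span of HHT2, peaks covered 0%, 24.3% and 38.2% in the lists with auxin, where the bases covered belonged to the peak of the spacer, against 97.3%, 93.7% and 0% in the lists without. The summits without auxin, at 575715 and 575714, stood 81.8% and 82.0% along the coding span from its start codon. They ranked 1314 of 2115 and 1188 of 2111, and the third list had no peak. The groups overlapped at 0% and the difference, auxin minus no auxin, of -42.8 points gave an exact permutation p of 0.4 (adjusted 0.626). With a list left out the difference at HHT2 was -74.7 to -26.0 points. The value of -74.7 came without the third list lacking auxin, the only run of these in which the groups did not overlap. As that list made the overlap, this does not show that the groups were separate. At HHF2 the spacer's peak reached 59.3% of the coding span in the third list with auxin alone, and no list without auxin had a peak.

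HHF1 and HHT1, the other H4 and H3 genes, lie on chromosome II around a spacer of 646 bp (255685 to 256330). Peaks covered 75.7%, 90.6% and 100% of the spacer in the lists with auxin, against 0.310%, 2.63% and 0% without. The few bases covered without auxin were the edge of peaks over HHT1. Means were 88.8 ± 12.3% with auxin and 0.980 ± 1.44% without (SD, n = 3 each), a difference of 87.8 points and place 2 of 1393 divergent spacers (exact permutation p = 0.1, adjusted 0.316). The summits with auxin lay at 255975, 255965 and 255959, on the HHF1 side of the centre, 275 to 291 bp upstream of the HHF1 start codon. Their ranks were 238 of 964, 220 of 1324 and 103 of 1569, or the top 24.7%, 16.6% and 6.56%, and the authors' fold was 6.14, 5.84 and 6.99. The stretch covered in all 3 lists with auxin was 489 bp (255790 to 256278).

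HHT1 had a summit inside its coding span in no list with auxin and in every list without, as did 4.90% of all coding genes. The summits without auxin, at 256527, 256587 and 256578, stood 47.9%, 62.5% and 60.3% along the coding span from its start codon. They ranked 708 of 2115, 650 of 2111 and 830 of 1502. The span was covered to 0%, 99.3% and 100% with auxin, against 96.6%, 100% and 92.5% without. The 2 high values with auxin came from spacer peaks of 993 and 1266 bp that ran on into the gene, so that covered share alone did not separate the groups (-29.9 points, exact permutation p = 0.9, adjusted 1). HHF1 was covered to 0%, 0% and 57.7% with auxin, against 64.1%, 0% and 0% without, and its only summit was at 255488 in the first list without auxin.

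HTB1 and HTA1, for H2B and H2A, share the longest of the 4 spacers, 817 bp on chromosome IV (914713 to 915529). Its covered share was 42.7%, 54.7% and 60.8% with auxin and 0% in each list without. The groups did not overlap, with means of 52.8 ± 9.21% with auxin and 0% without (SD, n = 3 each). The difference of 52.8 points was place 16 of 1393 (exact permutation p = 0.1, adjusted 0.316). The peak was the weakest of the 4 within each list with auxin, at rank 663 of 964, 597 of 1324 and 606 of 1569, or the top 68.8%, 45.1% and 38.6%, and the authors' fold was 3.08, 3.19 and 3.23. Its summits, at 915037, 915080 and 915058, lay 325 to 368 bp upstream of the HTB1 start codon and 450 to 493 bp upstream of that of HTA1. The 349 bp covered in all 3 lists (914938 to 915286) stayed 226 bp from the HTB1 start codon and 244 bp from that of HTA1.

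Neither coding span of this pair had a peak without auxin. HTB1 had none in any of the 6 lists. HTA1 had a weak peak in the third list with auxin, covering 69.7% of the span and ranked 1544 of 1569. The neighbour downstream of HTA1, the adenylate kinase gene ADK1, was covered to 0% in each list with auxin, against 33.3%, 79.5% and 0% without.

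HTA2 and HTB2, the second H2A and H2B genes, lie on chromosome II around a spacer of 699 bp (235793 to 236491), and here a spacer peak was called in both groups. Peaks covered 74.4%, 85.7% and 100% of the spacer with auxin, against 43.9%, 49.6% and 80.8% without. In the first list of either group this includes the edge of a separate peak over HTA2, and the spacer peak alone covered 70.2% with auxin and 41.2% without. The groups overlapped, since the third list without auxin lay above the first with auxin. Means were 86.7 ± 12.8% with auxin and 58.1 ± 19.9% without (SD, n = 3 each), a difference of 28.6 points (exact permutation p = 0.2, adjusted 0.568). With each peak reduced to 100 bp at either side of its summit, the difference was 0.0477 points. Every list had a summit well inside this spacer, so that setting gives near-equal shares by its design and cannot compare the groups. With a list left out the difference was 21.5 to 39.9 points, the highest without the third list lacking auxin. Leaving out that list or the first with auxin ended the overlap. As these 2 lists made the overlap, this does not show that the groups were separate. The summits lay at 236134, 236156 and 236146 with auxin, and at 236192, 236156 and 236150 without, so that those of 2 lists without auxin fell inside the range seen with auxin.

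By rank within its list, the HTA2 and HTB2 spacer peak was place 166 of 964, 141 of 1324 and 80 of 1569 with auxin, against 895 of 2115, 577 of 2111 and 507 of 1502 without. The authors' fold was 6.89, 6.64 and 7.16 with auxin and 1.80, 2.13 and 3.32 without. Lists differ in length and enrichment, and no change in Scc2 is read from rank or fold. Both coding spans also had peaks in both groups. HTA2 was covered to 80.7%, 100% and 100% with auxin, against 100%, 99.0% and 100% without, and HTB2 to 87.6%, 0% and 100% against 34.3%, 93.9% and 43.9%. Separate summits over HTB2 were called in the first list with auxin, 69.9% along the coding span from its start codon, and in all 3 lists without auxin, at 78.3% to 99.0%. Over HTA2 there were separate summits in the first list with auxin, at 235693, and in 2 lists without auxin, both at 235661.

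**Figure D2:**
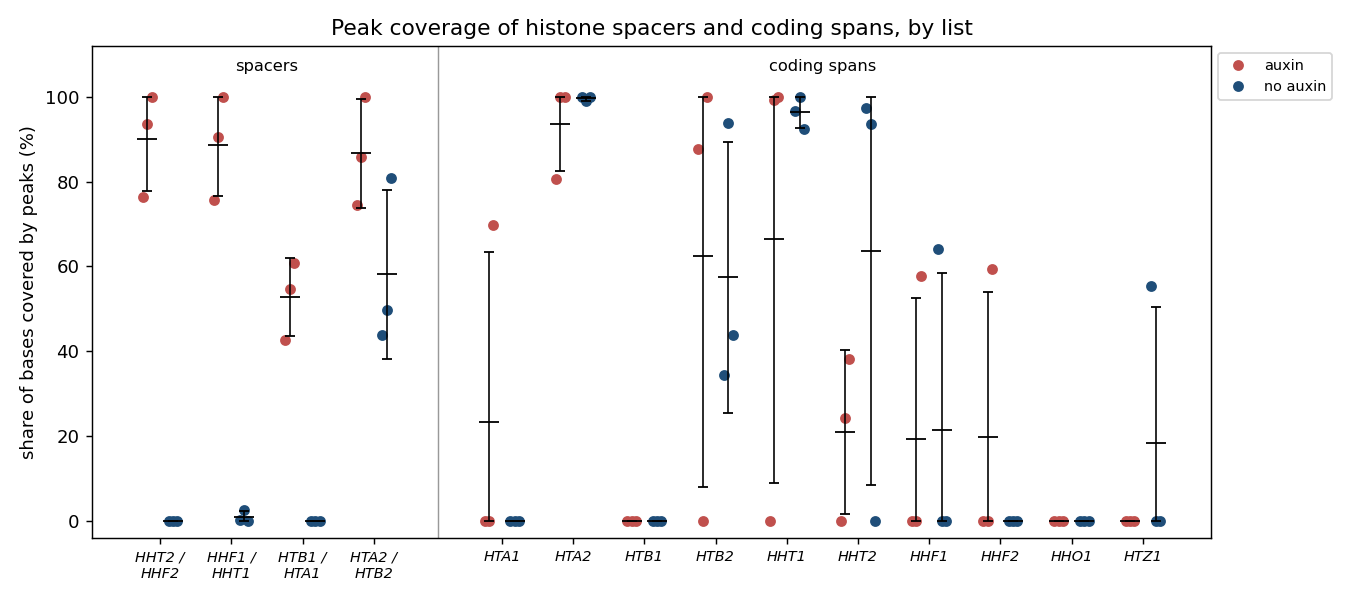
Share of bases covered by peaks (%), for the 4 spacers and the 10 coding spans, with a point for each list, auxin left (red) and no auxin right (blue). Horizontal dashes are means and bars are 1 SD (n = 3 lists), drawn no lower than 0% and no higher than 100%; 3 spacers are at 42.7% to 100% with auxin and at 0% to 2.63% without, and the coding spans overlap between groups.

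The HTA2 and HTB2 locus ends 1.32 kb from centromere 2, and HHF1 and HHT1 lie 17.1 kb from it on the other side. The peak over centromere 2 was separate from those at HTA2 and HTB2 in every list. It ranked 159 of 964, 246 of 1324 and 76 of 1569 with auxin, against 34 of 2115, 25 of 2111 and 13 of 1502 without. The HTA2 and HTB2 spacer peak thus stood above that of the centromere in the second list with auxin, a few places below it in the other 2, and far below it in each list without auxin. HHT2 and HHF2 lie 51.7 kb and HTB1 and HTA1 464 kb from the nearest centromere, and the tRNA gene nearest to any of the 4 pairs is 5.70 kb away. Within 20 kb of a centromere, 6.33% of 79 divergent spacers had a covered share higher in every list with auxin than in any without.

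By this measure 3 of the 4 histone spacers were higher in every list with auxin and none was lower, against 5.46% of all 1393 divergent spacers higher and 0.933% lower. Of the 281 divergent spacers with a peak in any list, 27.0% were higher. The median difference was 70.3 points over the 4 histone spacers and 0 points over all 1393. By mean covered share with auxin alone, the spacers were place 5 (HHT2 and HHF2), 9 (HHF1 and HHT1), 13 (HTA2 and HTB2) and 45 (HTB1 and HTA1) of 1393.

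**Figure D3:**
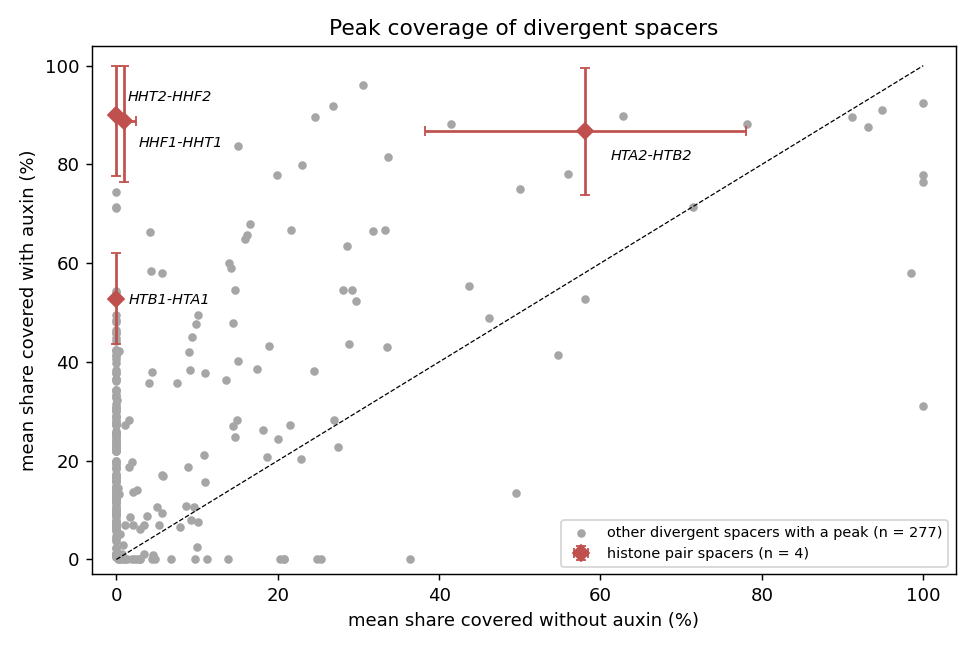
Mean share of each divergent spacer covered with auxin (vertical axis, %) against that without auxin (horizontal axis, %), for the 281 spacers with a peak in any list. Red diamonds are the 4 histone spacers with 1 SD over 3 lists, drawn within 0% to 100%, grey points the other spacers and the dashed line equal shares; the spacers of HHT2 with HHF2 and of HHF1 with HHT1 lie at the top left, at 90.0% and 88.8% with auxin and at 0% and 0.980% without.

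Over the coding spans the histone genes did not separate the groups. A peak touched 2, 3 and 7 of the 10 coding spans with auxin, against 6, 4 and 3 without. No histone gene had a peak in none of the lists with auxin and in every list without, which 5.56% of all coding genes did. None had a covered share lower in every list with auxin than in any without (9.98% of all coding genes) or higher (1.62%). The median difference was -1.07 points over the 10 genes and 0 over all 6002. Of the 7 spans touched in the third list with auxin, 6 were touched by a peak with its summit in a spacer, and only the peak over HTA1 had its summit inside a gene.

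The 4 spacer peaks differed in rank. Within each list with auxin the order by column 8 was HHT2 and HHF2 first, HTA2 and HTB2 next, then HHF1 and HHT1, and HTB1 and HTA1 last. The top place was 1.27% to 6.22% of the list for HHT2 and HHF2, against 38.6% to 68.8% for HTB1 and HTA1, and these ranges did not overlap. The ranges of HTA2 and HTB2, at 5.10% to 17.2%, and of HHF1 and HHT1, at 6.56% to 24.7%, overlapped. The summits of the 3 lists with auxin lay within 16 bp of each other for HHF1 and HHT1, 22 bp for HTA2 and HTB2, 42 bp for HHT2 and HHF2 and 43 bp for HTB1 and HTA1. The median of this range was 32.5 bp over the 84 divergent spacers with a summit in all 3 lists with auxin. Relative to the spacer's centre, with negative values to the left on the chromosome, the mean summit with auxin stood at 3.33 bp for HTA2 and HTB2, -11.2 bp for HHT2 and HHF2, -41.2 bp for HHF1 and HHT1 and -62.7 bp for HTB1 and HTA1. The median distance from the centre over the 84 spacers was 98.6 bp, and these spacers were longer, with a median of 962 bp against 646 to 817 bp for the histone spacers.

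**Figure D4:**
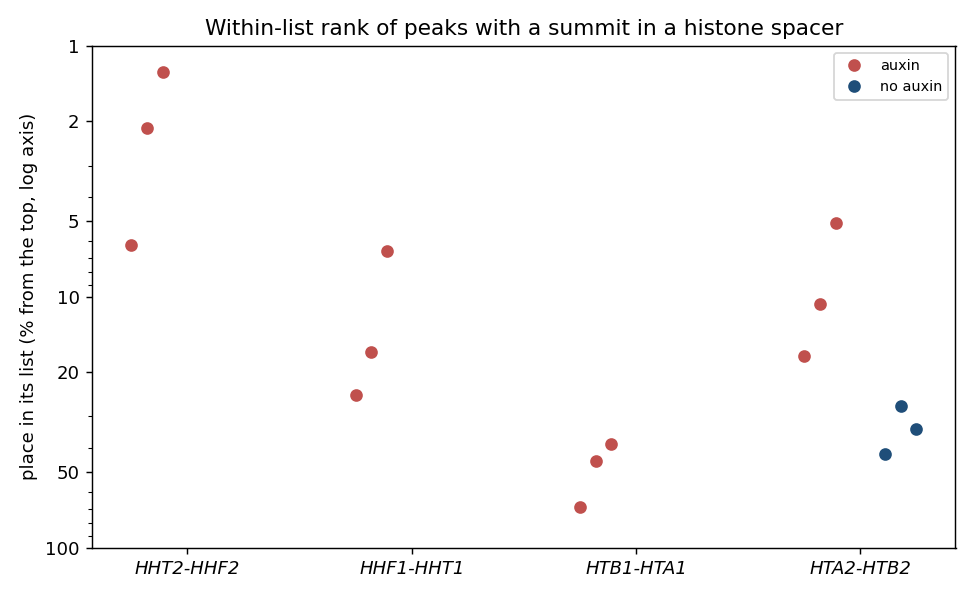
Place within its list, by −log10 p, of the peak with its summit in each histone spacer, as a percent of the list from the top (log axis, top of the list uppermost), with a point for each list that had such a summit. Auxin is left (red) and no auxin right (blue); HHT2 with HHF2 is at 1.27% to 6.22% with auxin, and only HTA2 with HTB2 has points without auxin, at 27.3% to 42.3%.

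The 2 histone genes outside the pairs had few peaks. HHO1, the linker histone H1 gene on chromosome XVI (308828 to 309604), had none in any list, and neither had its divergent spacer with NAN1. HTZ1, for the variant H2A.Z on chromosome XV (303579 to 303983), had a peak over 55.3% of its coding span in the first list without auxin, ranked 1349 of 2115, and none in the other 5 lists. In its spacer with PLB3, 28.4% was covered in the third list with auxin, by a peak ranked 1403 of 1569, and 0% in every other list.

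Of the 12 coding genes beside the 4 pairs, HHO1 and HTZ1, 8 had a peak in any list, 1 was lower in every list with auxin and 0 were higher. The 1 that was lower is 8.33% of the 12, near the 9.98% of all coding genes. It was IPP1, the inorganic pyrophosphatase gene downstream of HHT1, which was covered to 0% in each list with auxin, against 74.1%, 85.3% and 19.7% without (exact permutation p = 0.1, adjusted 0.286 over 1988 coding genes with a peak). On the other side of the pair, upstream of the efflux transporter gene FLR1, all 3 lists with auxin had a summit between 254637 and 254653 and no list without auxin had a peak there. FLR1 itself was covered to 0%, 46.0% and 48.0% with auxin and to 0% in each list without. ECM15, downstream of HTB2, was covered to 100%, 86.3% and 100% with auxin, against 99.4%, 93.7% and 100% without, by the peak over centromere 2. UTP20, downstream of HTA2, was covered to 0%, 2.67% and 7.40% with auxin, against 6.46%, 4.29% and 0% without. HRD1, beside HTZ1, was covered to 0%, 6.64% and 15.3% with auxin, against 11.3%, 8.21% and 3.20% without. PLB3, on the other side of HTZ1, was covered to 0% in each list with auxin, against 29.2%, 28.1% and 0% without. KTR5, beside HHF2, had a peak in the second list without auxin alone, over 14.9% of its span. SIW14, CRF1, TBF1 and NAN1 had none in any list.

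Of 12 regulators of histone transcription, which include the HIR complex genes HIR1, HIR2, HIR3 and HPC2, the activator genes SPT10 and SPT21 and the SBF and MBF genes SWI4, SWI6 and MBP1, only ASF1 had a peak over its coding span in any list. This is 8.33% of the 12, against 33.1% of all coding genes. ASF1, an H3-H4 chaperone gene, was covered to 0%, 0% and 39.2% with auxin, against 22.5%, 2.62% and 15.1% without, and lies 187 bp from a tRNA gene. None of the 12 was lower or higher in every list.

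Among 18 genes for other histone chaperones, deposition and modification factors, with the H3 variant gene CSE4 counted among them, 2 had a peak in 2 or more of the lists with auxin and 4 in 2 or more of those without, or 11.1% and 22.2%, against 11.3% and 22.4% of all coding genes. CAC2, a subunit gene of the chromatin assembly factor CAF-1, was covered to 0%, 0% and 18.6% with auxin, against 79.5%, 76.4% and 26.2% without. SPT16, a FACT subunit gene, was covered to 0% in each list with auxin, against 7.11%, 8.24% and 6.15% without. These 2 genes, 11.1% of the 18, were lower in every list with auxin (exact permutation p = 0.1 each, adjusted 0.286), a share near the 9.98% of all coding genes. CSE4 had no peak in any list. NAP1, for an H2A-H2B chaperone, was covered to 24.7%, 93.7% and 50.9% with auxin, against 86.1%, 82.6% and 61.6% without. HAT1, for a histone acetyltransferase and 228 bp from a centromere, was covered to 42.8%, 82.6% and 100% against 88.4%, 72.7% and 100%. Both overlapped between groups.

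The spacers most like the histone spacers were found by the mean absolute difference in covered share over the 6 lists. For HHT2 and HHF2, and also for HHF1 and HHT1, they were those of YLR108C with AHP1, ASK1 with SFK1 and SPT8 with ERG3, at 7.65 to 9.44 points. For HTB1 and HTA1 they were those of GID8 with GAT2, YGR050C with FMP48 and FRS2 with GAT1, at 0.831 to 1.66 points. All 6 were covered to 0% in each list without auxin. For HTA2 and HTB2 the nearest were less alike, at 9.81 to 15.1 points. They were the spacers of YLL067C with YLL066W-B, YOR394C-A with YRF1-8, and YER188C-A with YER189W.

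HTA1 and HTA2, HTB1 and HTB2, HHT1 and HHT2, and HHF1 and HHF2 encode near-identical or identical proteins, and how reads that fit both copies were placed is not given in the sources used here. How alike the coding sequences are was not examined, as no sequence was used. To that extent, peaks over these coding spans, and their absence at HTA1, HTB1 and HHF2 without auxin, are uncertain.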

How the data were processed

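Narrow peak lists of 6 Myc immunoprecipitates were used, 3 with and 3 without auxin. Per the submitters' processing notes, Bowtie2 2.4.2 and MACS2 2.1.1.20160309 were used on sacCer3. What each tool did, the cut-off and the control are not given in the sources. Each deposited list gives positions in bp, a fold enrichment ratio, −log10 p, −log10 q and an integer score, as the authors' caller wrote them for each replicate. The smallest −log10 q was 2.31 to 2.76.

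Genes came from RefSeq R64, whose sequence sacCer3 uses, with strand read from systematic names. Coding span means the annotated span. Covered share is the percent of bases under peaks. Centromere positions were entered from general knowledge; none of the 16 overlapped a coding gene. Groups were compared by exact two-sided permutation of the difference of means over 20 assignments of lists, with Benjamini-Hochberg adjustment over features with a peak in any list (Python 3.11.15, numpy 2.4.6, pandas 2.3.3). The code was tested on simulated data. Ranks are descriptive.

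The members, lists and tests were chosen with earlier results of these data known. The counts of spacers higher with auxin, of summits and of ranks among spacers were added after the lists were seen. Named were all members, related genes with a peak in at least 2 lists of either group, the 3 spacers most like each histone spacer, and neighbouring genes. Replicate numbers do not pair the samples by the labels. No sequence was used here.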

Additional observations from a re-analysis of the deposited data

How the results depend on the processing

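The covered share of each spacer kept its direction under every alternative run, but most runs could hardly have changed it at 3 of the spacers. The runs were a −log10 q of at least 5, equal lists (964 peaks each) and an overlap of at least 100 bp. The others were wider windows, summits with 100 bp at either side and each list left out. At HTA2 and HTB2 summits with 100 bp cannot compare the groups, since every list had one in that spacer. At the other 3 spacers, lists without auxin covered 0% to 2.63%. Stricter cuts, equal lists or a list left out thus could hardly reverse the direction there. Spacers higher in every list with auxin numbered 3 or 4, lower ones 0. Those with a summit in all lists with auxin and none without were 3 in the runs made. Of these, a list left out cannot lower such counts, and the higher −log10 q and equal lists kept all spacer peaks with auxin. Over the 4 spacers, the mean difference, auxin minus no auxin, was 64.8 points. It was 52.2 with windows 100 bp wider and 59.4 to 70.9 with a list left out. With summits and 100 bp, where each peak spans fewer bases, it was 21.4 (HTA2 and HTB2 0.0477).

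Coding span results were less stable. The mean difference over the 10 genes was -5.13 points, and 15.6 with 250 bp upstream added, where the window takes in spacer, 7.17 with lists of equal length and -13.6 with summits and 100 bp; with a list left out it was -16.1 to 1.73. The mean number of genes with a peak differed by -0.333, by 4 with the wider window and by -3 with summits and 100 bp. With the wider window 3 genes (HTA1, HTB1 and HHF2) were higher in every list with auxin. With summits and 100 bp 1 gene, HHT1, was lower in every list with auxin, with a peak in none of them and in every list without. With a list left out, 0 to 1 genes were lower, the 1 being HHT2 without the third list lacking auxin.

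Single coding spans changed direction in 16 of 120 alternative values; the cause was not tested. In points, wider windows gave 33.5 for HHF1, 15.6 for HHT1, 7.21 for HHT2 and 13.5 for HTA2, equal lists gave 19.2 for HHF1 and 20.8 for HHT2, and summits with 100 bp gave -20.8 for HTB2. With a list left out, the range was -21.4 to 19.2 for HHF1, -46.7 to 3.28 for HHT1, -9.31 to 0.334 for HTA2 and -13.6 to 36.4 for HTB2. With replicate number as a block, the differences (mean 64.8 for spacers, -5.13 for coding spans) are the same by arithmetic and no check. The exact sign-flip p was 0.25 for each spacer, the smallest that 3 pairs allow. Deviations of same-numbered lists from their group means correlated at -0.000689, 0.00703 and 0.104 over coding genes, so the numbers were not taken as pairs. Ranked by fold, the median place of the histone spacer peaks with auxin was 12.4% from the top, and by −log10 q 13.6%, as by −log10 p. Away from tRNA genes and centromeres, by at least 1000 bp, 9.72% of coding genes were lower with auxin, and within 20 kb of a centromere 12.4%, against 9.98% of all. Depth is unknown, so weak peaks cannot be told from missing ones.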
